A study of Mus musculus with 12 samples.

Results

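Kidney RNA from a mouse model of hyperuricemia was compared with kidney RNA from control mice, gene by gene. The members were the 4 libraries titled HUA and the 4 titled CTL, 8 of the 12 libraries of the series, chosen by their titles. All mice were wild type. HUA mice had been given potassium oxonate, an inhibitor of the urate-degrading enzyme uricase, together with hypoxanthine, a purine that is oxidised to urate. The CTL title names a control, and the labels give no vehicle for it. The remaining libraries, of model mice under a further treatment, entered the filter on low counts, the scaling and the estimate of the spread, and no comparison. The labels give no dose, duration, strain, age, sex or urate level, and it is not stated that each library is a different animal. The p-values therefore speak only of variation among these libraries, part of which may be technical. Library columns were matched to groups through the letters C and N in the sample descriptions, and N does not abbreviate HUA.

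Mice, unlike humans, degrade urate with uricase, so a hyperuricemic mouse needs that enzyme blocked and a purine supplied. Urate is filtered, reabsorbed and secreted in the proximal tubule, a segment that runs on mitochondrial and peroxisomal oxidation and carries most of the sodium, phosphate and glucose transport of the nephron. Injured tubule cells are known to lose these transporters and enzymes and to make cytoskeletal, adhesion and secreted signalling proteins that the resting tubule lacks.

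The libraries held 51.6 to 74.3 M counts each over 33188 genes. Log2 levels correlated at 0.961 to 0.966 within CTL, at 0.935 to 0.959 within HUA and at 0.89 to 0.941 between the groups. Chi-square per degree of freedom between replicate libraries ran from 25.8 to 453, so no pair was a repeated library. Composition differed along with the groups. Against the CTL mean, log2 levels in HUA2, HUA3 and HUA4 rose by 0.223 to 0.365 per 10% of transcript GC content, and HUA1 had a slope of 0.233 per doubling of transcript length. In the 4 CTL libraries the GC slopes lay between -0.04 and 0.05. Fits that allow for this composition are given below for some results, and not for all. Among them, the GC split sets HUA2, HUA3 and HUA4 apart from HUA1 and every CTL library, so it overlaps with the groups. All 10 kidney markers looked for were detected. Their summed level in CPM (counts scaled to the library size) was 34886 to 39362 in CTL and 9482 to 20244 in HUA. In whole kidney, fewer cells of a type and less RNA per cell cannot be told apart.

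Of 19772 genes tested, 2950 were higher in HUA (14.9%) and 2538 were lower (12.8%) at a Benjamini-Hochberg adjusted p under 0.05 in edgeR's quasi-likelihood test, together 5488 genes or 27.8%. Rose and fell are used below only of genes past that threshold. CPM values are scaled by TMM, and ± is the SD over 4 libraries in each group. The rises were larger than the falls. The median log2 change was 1.31 among genes that rose and -0.92 among genes that fell. More than 8-fold changes were seen in 437 rises and 83 falls. By the deposited gene class, 18.02% of 15237 protein-coding genes rose and 14.7% fell. Among 860 antisense genes 3.26% rose and 7.33% fell. The level of a few abundant genes changed the shape of the transcriptome. The 10 genes with the highest FPKM (fragments per kilobase of transcript, scaled to depth) held 32.1 to 35.4% of all FPKM in CTL and 23.4 to 28.5% in HUA. Between 11349 and 11576 genes reached 1 FPKM in a CTL library, against 12449 to 12630 in an HUA library. With library totals in place of TMM the median log2 change over all genes moved by 0.33, and 5779 genes were called higher and 1320 lower. Removing GC and length trends gave 2427 higher and 3609 lower.

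**Figure D1:**
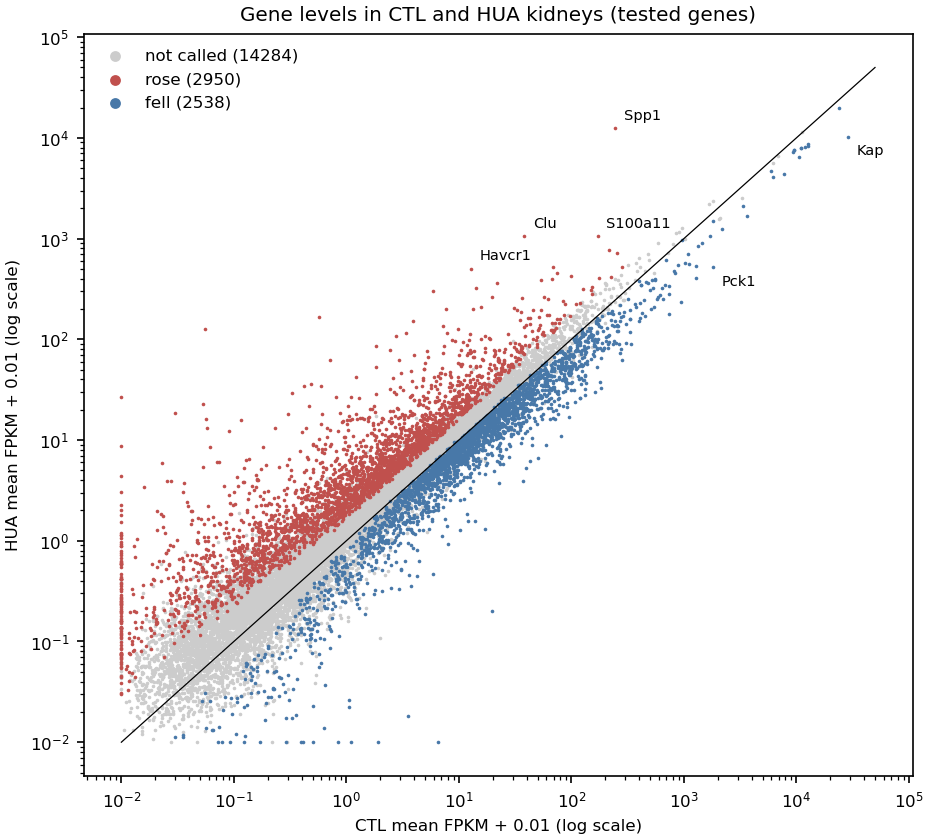
Mean FPKM of each tested gene in CTL (x) and HUA (y), both on log scales with 0.01 added, with the 2950 genes that rose in red, the 2538 that fell in blue and the others in grey. Rises reach far from the diagonal among genes that were low in CTL, while most falls lie close below it. Spp1 and Clu lie far above the diagonal among the abundant genes.

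Genes that were all but silent in CTL and present in HUA were few. Only 14 genes were under 0.1 FPKM in every CTL library and at 1 FPKM or more in every HUA library, and 1 showed the opposite. These were counted after the values were seen. Runx1, a transcription factor best known from blood formation, was one of them, at 1.55, 1.37, 1.1 and 1.42 CPM in the CTL libraries and 37.6, 13.2, 36.9 and 19.6 CPM in the HUA libraries. That choice fixed the separation of the groups (log2 change 4.30, SE 0.50, adjusted p = 9.8e-05, given as a description). Arhgap36, a protein that holds back protein kinase A, was 0 in all 4 CTL libraries, where 3 counts would be at most 0.0646 CPM, and 9.79, 5.45, 6.22 and 9.46 CPM in HUA. Il1rn (0.346 ± 0.275 CPM in CTL and 71.7 ± 65.4 CPM in HUA), the natural antagonist of the interleukin-1 receptor, was another.

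Promoter sequence was read for the genes that changed most at a readable level. Motif matches, on either strand, were counted in windows from 250 bases before to 50 after each RefSeq start (GRCm38.p6), and the share of windows is a description without a test. The AP-1 motif TGANTCA, the binding sequence of Fos and Jun proteins, stood in 13.4% of 337 windows of genes that rose over 4-fold. It stood in 4.22% of windows of expressed genes that were not called, in 7.29% of windows of genes that fell over 2-fold and in 7.81% of all windows of the table. The D-box TTANGTAA, bound by the clock-output factors Tef, Hlf and Dbp, stood in 3.96% of windows of genes that fell, 1.19% of windows of genes that rose, 1.39% of windows of genes not called and 2.32% of all windows. The TATA box TATAAA was about as frequent in windows of rises (13.9%) as of falls (12.4%), and less frequent in windows of genes not called (6.64%), but all windows of the table held it as often (13.6%). Motifs of NF-kB, STAT, HNF1 and the cAMP response element were searched too. In windows of rises, falls and genes not called, STAT stood in 1.19%, 0.99% and 1.26%. In the same order the cAMP response element stood in 2.08%, 1.73% and 3.35%, NF-kB in 1.48%, 0.87% and 0.25% and HNF1 in 1.19%, 1.36% and 0.13%. A promoter was found for 268 of 378 rises and 619 of 852 falls past these folds at 2 FPKM or more, predicted gene models included.

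The stretches below show AP-1 and D-box matches upstream of the start in the genes of largest change that had one. Capitals mark the motif, AP-1 in the first set and D-box in the second. They are given 5′ to 3′ on the gene's strand.
Lif, chr11:4257318-4257397, plus strand, bases 250 to 171 before the start: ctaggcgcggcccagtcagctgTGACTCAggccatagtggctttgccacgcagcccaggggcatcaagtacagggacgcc
Sprr2f, chr3:92364960-92365039, plus strand, bases 227 to 148 before the start: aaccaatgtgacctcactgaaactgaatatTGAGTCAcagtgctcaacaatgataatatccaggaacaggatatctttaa
Il1rn, chr2:24336689-24336768, plus strand, bases 171 to 92 before the start: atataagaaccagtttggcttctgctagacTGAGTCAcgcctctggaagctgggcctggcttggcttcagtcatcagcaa
Slc25a25, chr2:32424067-32424146, minus strand, bases 80 to 1 before the start: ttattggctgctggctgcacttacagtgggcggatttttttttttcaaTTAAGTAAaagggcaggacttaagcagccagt
Acsm3, chr7:119760830-119760909, plus strand, bases 93 to 14 before the start: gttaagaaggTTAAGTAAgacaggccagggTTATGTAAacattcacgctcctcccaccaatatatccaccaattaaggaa
G6pc, chr11:101367524-101367603, plus strand, bases 192 to 113 before the start: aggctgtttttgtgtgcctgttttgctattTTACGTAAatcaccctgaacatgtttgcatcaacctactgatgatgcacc

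The AP-1 genes shown differ in which HUA libraries were high. Lif, a cytokine of the interleukin-6 family, was 0.129, 0.536, 0.237 and 0.134 CPM in the CTL libraries and 232, 112, 33.4 and 22.2 CPM in the HUA libraries, with HUA1 highest. Sprr2f, a squamous cell envelope protein, was 0.074, 0, 0.0861 and 0 CPM in the CTL libraries and 3.96, 6.98, 16.9 and 11.1 CPM in the HUA libraries, with HUA3 highest. Of the D-box genes, Slc25a25, a mitochondrial carrier of ATP-magnesium and phosphate, was 899.6, 901, 721 and 739 CPM in the CTL libraries and 106, 113, 31.4 and 95.9 CPM in the HUA libraries, with every HUA library below every CTL library. Acsm3, a medium-chain acyl-CoA synthetase, was 400.4, 564, 820.5 and 596 CPM in the CTL libraries and 68.96, 198, 30.1 and 33.2 CPM in the HUA libraries. G6pc, the last enzyme of glucose release, was 625, 642, 541 and 398 CPM in the CTL libraries and 87.4, 228, 15.97 and 35.96 CPM in the HUA libraries, lowest in HUA3, and its fall (log2 change -2.59, SE 0.66, adjusted p = 0.01) was lost with the GC split of the libraries as a further term (adjusted p = 0.13).

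In absolute abundance the largest gain was that of Spp1, osteopontin, a secreted phosphoprotein that binds calcium crystals and CD44 (ENSMUSG00000029304, chromosome 5, 104435118 to 104441050, GRCm38). It was 257, 212, 231 and 284 FPKM in the CTL libraries and 8946, 3386, 10816 and 27112 FPKM in the HUA libraries, and all HUA libraries lay above all CTL libraries (log2 change 5.32, SE 0.52, adjusted p = 3.8e-05). Clu, the secreted chaperone clusterin, rose from a low CTL level, at 38.2 ± 5.08 FPKM in CTL and 1051 ± 439 FPKM in HUA. Havcr1, the kidney injury molecule KIM-1, was 13.6, 13.99, 10.6 and 13.4 FPKM in the CTL libraries and 214, 102, 934 and 756 FPKM in the HUA libraries, with a wide spread among HUA libraries and no overlap with CTL. S100a11, Ctsd, Actg1, Krt8, Plau, Mt2, Apoe, Wfdc2 and Actb made up the rest of the 12 largest gains. Plau, the urokinase that activates plasminogen, was 74.3 ± 14.4 FPKM in CTL and 457 ± 215 FPKM in HUA, and Apoe, a lipid carrier, was 53.5 ± 12.7 FPKM in CTL and 388 ± 94.7 FPKM in HUA.

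The largest losses were of Kap, the androgen-regulated proximal tubule protein, and of mitochondrial transcripts. Kap, the most abundant of them, was 25263, 29598, 32144 and 29231 FPKM in the CTL libraries and 8121, 17723, 7521 and 7705 FPKM in the HUA libraries. HUA2 kept more Kap than the other HUA libraries and still lay below every CTL library (log2 change -1.85, SE 0.26, adjusted p = 3.8e-04). Of the 12 largest losses, 10 were genes of the mitochondrial genome: mt-Cytb, mt-Co1, mt-Atp8, mt-Atp6, mt-Nd2, mt-Co3, mt-Nd4, mt-Nd1, mt-Co2 and the transfer RNA mt-Te. The largest of these by log2 change among protein genes was mt-Nd2, a complex I subunit, at 10231, 12294, 9231 and 9404 CPM in the CTL libraries and 5659.8, 5804, 3415 and 3098 CPM in the HUA libraries (log2 change -1.20, SE 0.23, adjusted p = 0.0024). The whole mitochondrial genome took 11.7 to 14.9% of counts in CTL and 7.85 to 11.3% in HUA. Several of these calls were lost under other fits. mt-Co1 had an adjusted p of 0.1 with the GC split and 0.13 with library totals, and mt-Atp8, mt-Nd1, mt-Nd4, mt-Co2 and mt-Te also lost their call with the GC split. mt-Atp8 lost it too with CTL2 or HUA3 left out. With limma on log2(FPKM + 1), the calls of all 9 protein genes named here except mt-Nd2 were lost. mt-Nd2 kept its call in each alternative. Pck1, which starts gluconeogenesis from oxaloacetate, was the other loss, at 9128, 8805, 6466 and 7134 CPM in the CTL libraries and 2579, 2885, 323 and 1377 CPM in the HUA libraries, with HUA3 lowest (log2 change -2.14, SE 0.58, adjusted p = 0.015). Its adjusted p was 0.21 with the GC split.

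**Figure D2:**
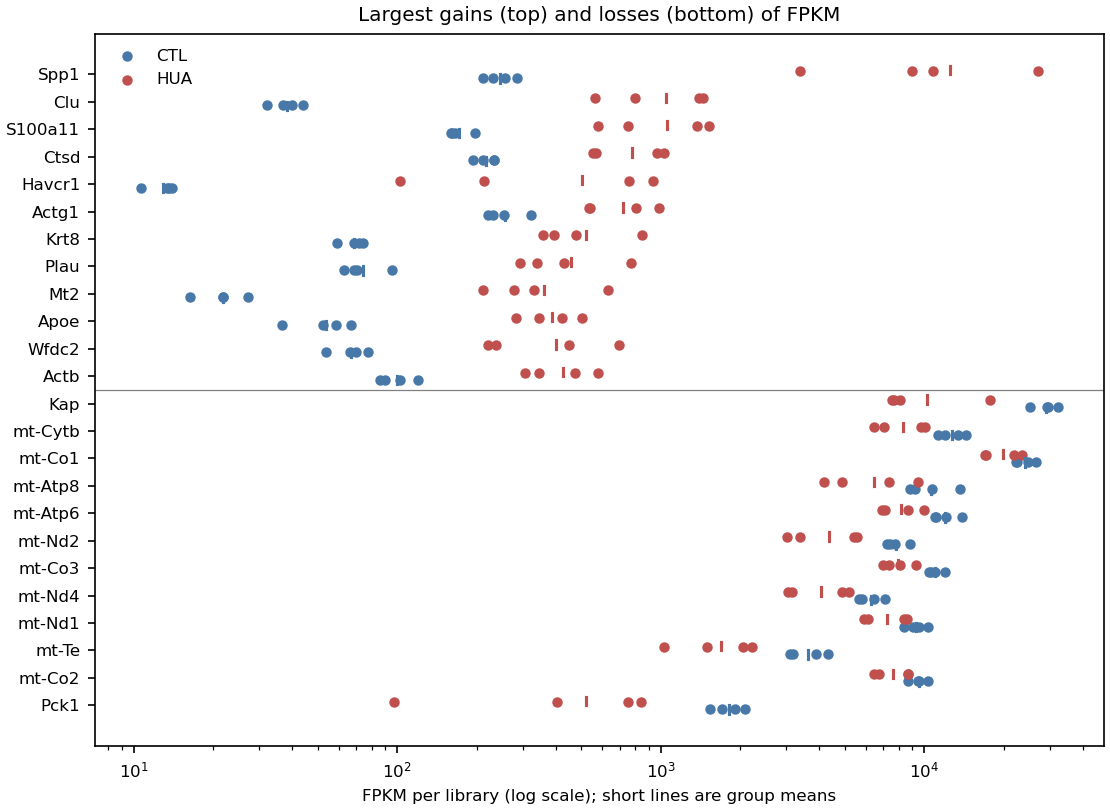
FPKM on a log scale (x) of the 12 largest gains and 12 largest losses of mean FPKM, one point per library (CTL blue, HUA red) with short lines at the group means. Gains leave no overlap between the groups, while mt-Co1, mt-Nd1, mt-Atp8 and mt-Co2 have HUA values that reach those of CTL.

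Transcripts of oxidative metabolism enzymes fell together beyond the mitochondrial genome. Of 25 genes of the citric acid cycle and its feeders, 22 fell and 0 rose, against 12.8% and 14.9% of all tested genes. The median log2 change was -0.80 against 0.06 over all genes. This list and those below were chosen with earlier results of these data known, so the shares are a description and no test. Suclg1 and Sucla2, subunits of succinyl-CoA ligase, both fell. Suclg1 was 381, 394, 403 and 403 CPM in the CTL libraries and 210.3, 239, 159.6 and 182 CPM in the HUA libraries (log2 change -0.998, SE 0.14, adjusted p = 3.3e-04). Sucla2 was 252 ± 18.2 CPM in CTL and 124 ± 23.5 CPM in HUA, fumarase (Fh1) was 303 ± 34.9 CPM in CTL and 168 ± 20.04 CPM in HUA and cytosolic malic enzyme (Me1), which makes NADPH, was 979 ± 137 CPM in CTL and 371 ± 106 CPM in HUA. In the 4 HUA libraries the median of the list lay -0.64, -0.63, -0.97 and -0.95 log2 units from the CTL mean.

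Peroxisomes oxidise very long-chain fatty acids, D-amino acids and, in mice, urate. Of 35 genes for their assembly and matrix enzymes, 30 fell and 0 rose (median log2 -0.86). The import receptor partners Pex14 (73.9 ± 8.41 CPM in CTL and 38.95 ± 4.41 CPM in HUA) and Pex13 (50.9 ± 5.62 CPM in CTL and 28.99 ± 3.42 CPM in HUA) fell, as did the matrix enzymes Nudt19, a CoA diphosphatase, at 1083, 1822, 1603 and 1057 CPM in the CTL libraries and 433, 548, 370.5 and 374 CPM in the HUA libraries, and Dao, D-amino acid oxidase, at 356 ± 27.6 CPM in CTL and 196 ± 30.3 CPM in HUA. No HUA library reached a CTL library for Nudt19. With limma on log2(FPKM + 1) 19 of the list fell.

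Transcripts of ketone body enzymes fell too. Of 15 genes of ketone body, carnitine and creatine metabolism, 8 fell and 1 rose (median log2 -1.18). Acat1, a thiolase that ends ketone body breakdown, was 1076, 1165, 1193 and 1157 CPM in the CTL libraries and 358, 605, 243 and 243 CPM in the HUA libraries, lowest in HUA3 and HUA4. Oxct1, which activates acetoacetate with CoA, was 1183 ± 52.1 CPM in CTL and 516 ± 144 CPM in HUA. Bdh2, a cytosolic dehydrogenase, had a log2 change of -1.25. The creatine importer Slc6a8, the single riser (named after its values were seen), was 181 ± 26.7 CPM in CTL and 247 ± 12.9 CPM in HUA, and its call was lost with the GC split (adjusted p = 0.081) and with CTL3 or CTL4 left out.

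One-carbon metabolism, which moves methyl and formyl groups for purines and methylation, had more falls than rises. Of 29 genes, 14 fell and 4 rose, the rises near the 14.9% of all genes. The falls included Gnmt, which uses S-adenosylmethionine on glycine, at 29.3, 34.5, 34.7 and 34.5 CPM in the CTL libraries and 7.62, 13.1, 5.41 and 3.87 CPM in the HUA libraries (log2 change -2.15, SE 0.30, adjusted p = 3.2e-04). Ahcy, which clears S-adenosylhomocysteine, was 178 ± 28.2 CPM in CTL and 57.3 ± 22.9 CPM in HUA. Mitochondrial serine hydroxymethyltransferase (Shmt2) was 252 ± 29.2 CPM in CTL and 90.9 ± 39.1 CPM in HUA. The 4 risers, named after their values were seen, were Phgdh and Psat1, the first and second steps of serine synthesis, and Mthfd2 and Mthfd1l, mitochondrial folate enzymes. Mthfd1l was 1.79, 3.21, 2.78 and 1.94 CPM in the CTL libraries and 5.32, 6.67, 13.9 and 12.1 CPM in the HUA libraries, highest in HUA3 and HUA4 (log2 change 1.96, SE 0.37, adjusted p = 0.0021). Psat1 was 27.8 ± 10.2 CPM in CTL and 66.9 ± 23.6 CPM in HUA. The calls of Phgdh and Mthfd2 were lost with the GC split, at adjusted p = 0.34 and 0.093, and that of Phgdh also with CTL1, CTL2, CTL3, HUA3 or HUA4 left out.

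Tryptophan is degraded to NAD precursors in the proximal tubule. Of 28 genes of this route and of NAD use, 13 fell and 2 rose (median log2 -0.55). The shares among all tested genes were 12.8% and 14.9%. Afmid, kynurenine formamidase, was 121, 111, 112 and 76.5 CPM in the CTL libraries and 26.8, 40.4, 19.1 and 29.7 CPM in the HUA libraries (log2 change -1.86, SE 0.31, adjusted p = 9.6e-04). Mitochondrial NAD kinase (Nadk2) was 107 ± 5.33 CPM in CTL and 41.04 ± 17.1 CPM in HUA, and aspartate dehydrogenase domain protein Aspdh was 92.4 ± 10.7 CPM in CTL and 21.2 ± 16.4 CPM in HUA. Parp14, an ADP-ribosyltransferase, rose (5.52 ± 1.71 CPM in CTL and 23.1 ± 5.8 CPM in HUA). The other riser, Nmnat3 (log2 0.66, named after its values were seen), lost its call with the GC split (adjusted p = 0.11) and with CTL1, CTL2, CTL3, CTL4 or HUA4 left out.

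Over 297 KEGG pathways of the deposited annotation with at least 15 tested genes, the highest shares of falls were in branched-chain and short-chain acid metabolism and the citrate cycle. Of 49 genes of valine, leucine and isoleucine degradation, 41 fell (83.7%). Propanoate metabolism had 25 falls among 29 genes and butanoate metabolism 20 among 24, and the citrate cycle 25 among 30. Pathways share genes, so these shares are not separate results.

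**Figure D3:**
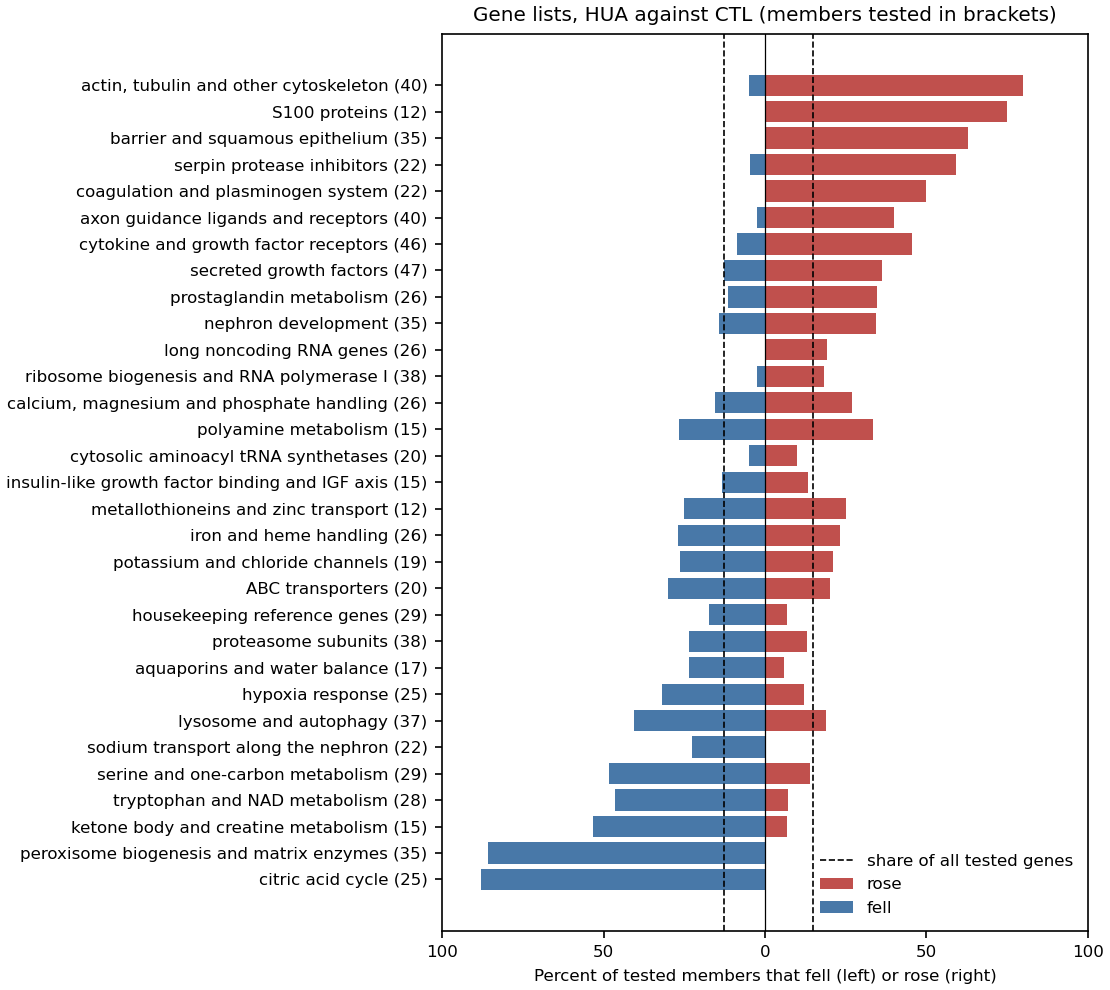
Percent of the tested members of each gene list that rose (red, right) or fell (blue, left) in HUA, with dashed lines at the shares among all tested genes, 14.9% for rises and 12.8% for falls. Cytoskeleton, S100, barrier, serpin and coagulation lists lie at the top, citric acid cycle, peroxisome and ketone body lists at the bottom.

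Sodium transporters set the salt balance along the nephron. Of 22 genes 5 fell and 0 rose, against 12.8% and 14.9% of all tested genes. In either direction 22.7% of the list was called, against 27.8% of all genes. All HUA libraries lay below all CTL libraries for 7, a pattern that 15.2% of all genes showed. The proximal sodium-phosphate carrier Slc34a1 was 4125, 3652, 3736 and 2891 CPM in the CTL libraries and 1229, 2249.9, 1182 and 436 CPM in the HUA libraries (log2 change -1.50, SE 0.35, adjusted p = 0.0069). Its relative Slc34a3 was 31.03 ± 5.6 CPM in CTL and 10.8 ± 4.87 CPM in HUA. In the collecting duct, the sodium channel subunit Scnn1g was 46.7 ± 7.01 CPM in CTL and 25.2 ± 6.91 CPM in HUA, and Hsd11b2, which shields the mineralocorticoid receptor from corticosterone, was 99.8 ± 7.74 CPM in CTL and 42.1 ± 9.22 CPM in HUA. The count of falls depended on the fit, with 13 after removal of GC and length trends, 11 without HUA1 and 8 with a replicate block. The thick limb carrier Slc12a1, named after its values were seen, was 1124, 1026, 932 and 1317 CPM in the CTL libraries and 1104, 473, 269.8 and 102 CPM in the HUA libraries. HUA1 lay within CTL and HUA4 far below, and the change missed the threshold (adjusted p = 0.18), with an adjusted p of 0.026 without HUA1. The distal carrier Slc12a3 (566 ± 86.4 CPM in CTL and 646 ± 181 CPM in HUA, adjusted p = 0.58) and uromodulin, Umod (2809.5 ± 243 CPM in CTL and 2449.7 ± 796 CPM in HUA, adjusted p = 0.74), also named after the fact, missed it too.

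Potassium and chloride channels went both ways, with 4 of 19 tested genes up (2 without CTL2 or CTL3 or HUA3) and 5 down. The shares among all tested genes were 14.9% and 12.8%. The inward rectifiers Kcnj15 and Kcnj16 fell, Kcnj15 at 1466, 1527, 1340.2 and 1130.2 CPM in the CTL libraries and 671, 706, 328 and 358 CPM in the HUA libraries. Kcnk5, a background potassium channel of the proximal tubule that also sets bicarbonate transport, was 294 ± 47.8 CPM in CTL and 114 ± 13.4 CPM in HUA. Among the rises was Ano6, a calcium-activated lipid scramblase and channel, at 74.1, 59.5, 65.4 and 62.6 CPM in the CTL libraries and 121, 70.3, 135 and 101 CPM in the HUA libraries (log2 change 0.71, SE 0.21, adjusted p = 0.022; named after its values were seen). Its call was lost with CTL2, CTL3, CTL4 or HUA3 left out and with the GC split (adjusted p = 0.061).

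Divalent ion handling showed one of the clearest distal changes. Trpv5, the apical calcium channel of the distal convoluted tubule (ENSMUSG00000036899, chromosome 6, 41652173 to 41680769, GRCm38), was 13.2, 12.2, 10.8 and 9.72 CPM in the CTL libraries and 68.1, 73.2, 76.5 and 52.3 CPM in the HUA libraries. Each HUA library was well above the highest CTL library (log2 change 2.55, SE 0.25, adjusted p = 3.7e-05). Of 26 genes of calcium, magnesium and phosphate handling, 7 rose (4 without CTL2 or CTL3) and 4 fell. Among all tested genes 14.9% rose and 12.8% fell. The falls, and the rises without CTL2 or CTL3, were near those shares. Stc2, a secreted stanniocalcin, rose (1.29 ± 0.349 CPM in CTL and 6.38 ± 2.98 CPM in HUA), as did the magnesium channel gene Trpm6 (log2 1.29, named after its values were seen) and the receptor gene Fgfr1 (50.1 ± 4.46 CPM in CTL and 80.9 ± 14.2 CPM in HUA). The 4 falls, listed after their values were seen apart from Pth1r, were the parathyroid hormone receptor Pth1r, the FGF23 co-receptor Kl, the vitamin D receptor Vdr and the vitamin D activating enzyme Cyp27b1. Kl was 594, 535, 627 and 435 CPM in the CTL libraries and 266, 309.9, 173 and 91.1 CPM in the HUA libraries (log2 change -1.38, SE 0.29, adjusted p = 0.004), lowest in HUA4. Cyp27b1 was 65.9, 44.5, 21.7 and 43.5 CPM in the CTL libraries and 3.77, 27.5, 2.92 and 5.88 CPM in the HUA libraries, with HUA2 within the CTL range, and its fall (log2 change -2.13, SE 0.67, adjusted p = 0.031) was lost with the GC split (adjusted p = 0.22) and with CTL1, CTL2, CTL4, HUA1, HUA3 or HUA4 left out. Vdr (361 ± 25.6 CPM in CTL and 168 ± 52.9 CPM in HUA) also lost its call with the GC split (adjusted p = 0.054).

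Water channels fell where they changed. Of 17 genes of water balance 4 fell and 1 rose, against 12.8% and 14.9% of all tested genes. The falls were Aqp1 (named after its values were seen) of the proximal tubule and thin limb and basolateral Aqp3 of the collecting duct. Vesicular Aqp6 of intercalated cells and Aqp11 of the endoplasmic reticulum fell too. Aqp3 was 116, 94.4, 111 and 117 CPM in the CTL libraries and 46.5, 37.7, 10.2 and 18.6 CPM in the HUA libraries, without overlap (log2 change -1.96, SE 0.37, adjusted p = 0.002). Aqp6 was 53.02 ± 6.1 CPM in CTL and 13.8 ± 6.46 CPM in HUA. Aqp1 (adjusted p = 0.068) and Aqp11 (adjusted p = 0.071) lost their calls with the GC split, and Aqp1 also with library totals. The vasopressin-regulated Aqp2, named after its values were seen, was 320.1, 294, 321 and 343 CPM in the CTL libraries and 285, 164, 357 and 117 CPM in the HUA libraries, with HUA1 and HUA3 near CTL and HUA2 and HUA4 lower (adjusted p = 0.38). Nfat5, the transcription factor of the osmotic response, was the single riser, at 66.2, 65.9, 68.5 and 66.8 CPM in the CTL libraries and 218, 99.9, 164 and 97.4 CPM in the HUA libraries (log2 change 1.12, SE 0.25, adjusted p = 0.0056).

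Drug and lipid pumps of the ABC family went both ways, with 4 of 20 up and 6 down (3 without CTL2 or CTL3 or HUA3 or HUA4). The shares among all tested genes were 14.9% and 12.8%. The urate exporter Abcg2 was 403, 449.8, 516 and 435 CPM in the CTL libraries and 253, 241, 169 and 202 CPM in the HUA libraries (log2 change -1.06, SE 0.15, adjusted p = 4.5e-04), and the peroxisomal fatty acid importer Abcd3 was 546 ± 64.99 CPM in CTL and 206 ± 52.5 CPM in HUA. The organic anion exporters Abcc3 (2.44 ± 0.771 CPM in CTL and 9.12 ± 1.5 CPM in HUA) and Abcc1 (13.3 ± 1.75 CPM in CTL and 27.99 ± 8.64 CPM in HUA) rose.

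Metal handling changed at both metallothioneins, small cysteine-rich proteins that bind zinc, copper and cadmium. Mt2 was 16.3, 21.4, 11.8 and 15.6 CPM in the CTL libraries and 195, 125, 359 and 162 CPM in the HUA libraries and Mt1 54.3, 58.7, 32.96 and 50.3 CPM in the CTL libraries and 232, 209.7, 354 and 218 CPM in the HUA libraries. For both, all HUA libraries exceeded all CTL libraries (log2 change 3.69, SE 0.36, adjusted p = 3.8e-05 for Mt2). Among 12 genes of the list 3 rose and 3 fell, where 14.9% of all tested genes rose and 12.8% fell. The zinc importer Slc39a1 was 63.4 ± 3.5 CPM in CTL and 106 ± 14.9 CPM in HUA and the vesicular zinc exporter Slc30a2 86.5 ± 11.8 CPM in CTL and 34.3 ± 12.6 CPM in HUA. Of 26 iron and heme genes, 6 rose and 7 fell, against the same shares of all tested genes. Ceruloplasmin (Cp), the copper ferroxidase that loads iron onto transferrin, was 36.5, 38.6, 23.4 and 50.4 CPM in the CTL libraries and 498, 160.1, 435 and 682 CPM in the HUA libraries (log2 change 3.57, SE 0.40, adjusted p = 8.8e-05). The iron exporter Slc40a1 was 27.2 ± 2.94 CPM in CTL and 61.4 ± 5.03 CPM in HUA with a narrow spread in both groups, and the metalloreductase Steap1 was 1.83 ± 0.507 CPM in CTL and 23.4 ± 18.02 CPM in HUA. Ferrochelatase (Fech), which closes heme synthesis, was 187 ± 10.5 CPM in CTL and 94.1 ± 18.6 CPM in HUA. Summed erythroid markers were 389 to 601 CPM in CTL and 19.5 to 205 CPM in HUA, and 5 of 6 fell. The falls were 3 with DESeq2, with the GC split or without CTL1 or CTL2. They were 2 without HUA2, HUA3 or HUA4 and 6 without HUA1. The part of erythroid markers in these iron genes was not tested.

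Polyamines are made by ornithine decarboxylase and returned by acetylation and oxidation. Spermine oxidase (Smox) was 4.09, 4.92, 4.33 and 5.31 CPM in the CTL libraries and 39.3, 23.8, 65.4 and 35.5 CPM in the HUA libraries (log2 change 3.14, SE 0.28, adjusted p = 2.5e-05), and the acetyltransferase Sat1 was 295 ± 28.98 CPM in CTL and 662 ± 242 CPM in HUA. Mitochondrial arginase (Arg2), which makes ornithine, was 30.7 ± 9.63 CPM in CTL and 117 ± 46.3 CPM in HUA, and Amd1, the S-adenosylmethionine decarboxylase, was 41.97 ± 4.83 CPM in CTL and 83.9 ± 30.6 CPM in HUA. Odc1, named after its values were seen, was 351, 370.1, 847 and 289 CPM in the CTL libraries and 144, 212, 216 and 202 CPM in the HUA libraries, with CTL3 far above the other CTL libraries (log2 change -1.26, SE 0.29, adjusted p = 0.0064). In all, 5 of 15 genes rose and 4 fell, against 14.9% and 12.8% of all tested genes. With library totals 1 fell.

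The cytoskeleton list had the highest share of rises. Of 40 genes 32 rose and 2 fell (median log2 1.43), and the counts under the alternatives stayed within 1.5 times of this for the rises. The tubulin genes Tubb2b and Tubb2a led by p-value. Tubb2b, an isotype best known from neurons, was 15.6, 14.3, 12.01 and 20.1 CPM in the CTL libraries and 152, 97.2, 199 and 162 CPM in the HUA libraries (log2 change 3.30, SE 0.27, adjusted p = 1.0e-05). Tubb2a was 31.99 ± 8.92 CPM in CTL and 160.4 ± 23.7 CPM in HUA. These 2 genes are near-identical copies, so their reads may have been shared. Flna, which crosslinks actin, was 45.9 ± 4.31 CPM in CTL and 264 ± 99.1 CPM in HUA, and cytoplasmic actin Actb was 308, 310.02, 336 and 392 CPM in the CTL libraries and 1273, 923, 1509 and 814 CPM in the HUA libraries. The 2 that fell were Tubb3 and Tuba4a (log2 -2.26 and -0.68, named after their values were seen).

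S100 proteins, small calcium sensors, and serpins, protease inhibitors, rose with them. Of 12 S100 genes 9 rose and 0 fell (median log2 2.06). S100a6 was 5.49, 2.99, 5.3 and 5.06 CPM in the CTL libraries and 68.97, 73.7, 288 and 147 CPM in the HUA libraries (log2 change 4.94, SE 0.59, adjusted p = 1.2e-04), highest in HUA3. S100a14 was 0.173 ± 0.111 CPM in CTL and 6.04 ± 1.25 CPM in HUA, and S100a10, the annexin A2 partner that anchors plasminogen at the cell surface, was 87.6 ± 25.6 CPM in CTL and 317 ± 167 CPM in HUA. Of 22 serpins 13 rose and 1 fell. Serpina3g was 0.314, 1.01, 0.495 and 0.201 CPM in the CTL libraries and 11.9, 10.3, 13.6 and 11.2 CPM in the HUA libraries, with the smallest spread across HUA libraries of the symbol-bearing genes that rose over 4-fold at a mean of 2 FPKM or more. Serpina10, the inhibitor of factor Xa known as protein Z-dependent protease inhibitor, was 0.666, 0.417, 0.624 and 3.42 CPM in the CTL libraries and 55.5, 31.01, 72.8 and 91.97 CPM in the HUA libraries (log2 change 5.59, SE 0.68, adjusted p = 1.3e-04). Serpinb6a (17.3 ± 0.941 CPM in CTL and 61.1 ± 18.9 CPM in HUA) and Serpinb6b (7.35 ± 1.36 CPM in CTL and 42.9 ± 20.03 CPM in HUA) rose and have near copies, so reads may have been shared. The serpin that fell, Serpinf2 (log2 -0.87, named after its values were seen), is the plasmin inhibitor, and it lost its call with the GC split (adjusted p = 0.052).

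In the coagulation and plasminogen list, 11 of 22 genes rose and 0 fell, against 14.9% and 12.8% of all tested genes. Plaur, the urokinase receptor, was 2.94, 3.03, 3.77 and 4.71 CPM in the CTL libraries and 89.2, 48.1, 99.8 and 37.98 CPM in the HUA libraries (log2 change 4.25, SE 0.42, adjusted p = 3.8e-05). Thbs1, a platelet and matrix glycoprotein that activates latent TGF-beta, was 17.5, 17.1, 22.7 and 22.002 CPM in the CTL libraries and 317, 148, 405 and 123 CPM in the HUA libraries. F2rl1, the protease-activated receptor PAR2, was 9.9 ± 0.957 CPM in CTL and 45.4 ± 15.3 CPM in HUA, and the anticoagulant protein S (Pros1) was 12.8 ± 2.38 CPM in CTL and 40.7 ± 8.45 CPM in HUA. For each of these 4 genes HUA4 or HUA2 was lowest among HUA libraries and none reached CTL. Liver markers, which could bring in plasma protein transcripts, summed to 94.96 to 124 CPM in CTL and 34.3 to 61.2 CPM in HUA. Most of the sum in CTL was Ttr, transthyretin, which fell from a mean of 105 CPM in CTL to 28.4 CPM in HUA. Of 7 liver markers tested 2 fell (Ttr and Apoa2) and 2 rose, Serpina1c from 1.15 to 17.9 CPM and Hpx from 0.146 to 1.59 CPM. With the GC split 1 liver marker fell and 1 rose. Alb was 3.95 CPM in CTL and 1.65 CPM in HUA, not past the threshold. Their part in the coagulation genes was not tested.

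Barrier and squamous epithelial genes rose in 22 of 35 cases, and 0 fell, against 14.9% and 12.8% of all tested genes. Krt7, a simple-epithelium keratin of the collecting duct, was 98.5, 86.2, 85.9 and 97.7 CPM in the CTL libraries and 341, 379.6, 913 and 535 CPM in the HUA libraries, with every HUA library far above CTL and HUA3 highest (log2 change 2.56, SE 0.26, adjusted p = 5.4e-05). The membrane mucin Muc1 was 13.8 ± 0.669 CPM in CTL and 80.6 ± 11.01 CPM in HUA, with every HUA library between 68.4 and 92.96 CPM. Of 8 urothelial markers 2 rose, Psca (2.27 ± 1.49 CPM in CTL and 13.8 ± 5.75 CPM in HUA) and Gata3 (7.24 ± 1.64 CPM in CTL and 13.04 ± 5.01 CPM in HUA), and the summed level was 9.26 to 29.1 CPM in CTL and 19.2 to 62.6 CPM in HUA. Both calls were lost with the GC split, with HUA3 left out and with CTL4 left out. The uroplakin Upk3a was 3.22, 0.198, 2.05 and 0.553 CPM in the CTL libraries and 0.311, 0, 0.469 and 5.57 CPM in the HUA libraries and Krt5 reached 19.1 CPM in HUA4. The part of urothelium in the barrier genes was not tested.

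Of 47 growth factor genes 17 rose and 6 fell, against 14.9% and 12.8% of all tested genes. The share of falls was thus near that of all genes. Pdgfb, a mitogen for pericytes and fibroblasts, was 8.1, 8.23, 11.8 and 9.9 CPM in the CTL libraries and 128, 97.7, 178 and 65.1 CPM in the HUA libraries (log2 change 3.62, SE 0.28, adjusted p = 7.0e-06). Ccn1, a matrix-bound target of YAP, was 49.5 ± 26.4 CPM in CTL and 531 ± 124 CPM in HUA. Edn1, the vasoconstrictor endothelin-1, was 1.39, 0.615, 2.05 and 2.2 CPM in the CTL libraries and 32.7, 16.6, 54.2 and 17.5 CPM in the HUA libraries, and Bmp1, a procollagen protease, was 6.09 ± 0.736 CPM in CTL and 29.1 ± 12.6 CPM in HUA. Egf, which the distal tubule makes in the healthy kidney, was 988, 856, 704 and 845 CPM in the CTL libraries and 202, 154, 30.9 and 15.2 CPM in the HUA libraries (log2 change -3.08, SE 0.65, adjusted p = 0.0037; named after its values were seen), falling furthest in HUA3 and HUA4. Summed fibroblast and pericyte markers were 97.9 to 123 CPM in CTL and 150.1 to 292 CPM in HUA, and macrophage markers 73.1 to 123 CPM in CTL and 101 to 310.05 CPM in HUA, where HUA4 was the lowest. Of 8 fibroblast and pericyte markers 4 rose and 1 fell, and of 10 macrophage markers 7 rose and 0 fell. With the GC split 2 fibroblast and pericyte markers rose and 0 fell, and 5 macrophage markers rose and 0 fell. Their part in the factors above was not tested.

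Of 46 receptor genes 21 rose and 4 fell (2 without HUA3), against 14.9% and 12.8% of all tested genes. The share of falls was no larger than that of all genes. The oncostatin M receptor (Osmr) was 3.88, 8.23, 3.77 and 3.69 CPM in the CTL libraries and 46.8, 23.8, 85.7 and 54.7 CPM in the HUA libraries (log2 change 3.43, SE 0.40, adjusted p = 1.1e-04). Tnfrsf12a, the receptor of the cytokine TWEAK, was 30.3 ± 12.8 CPM in CTL and 217 ± 85.9 CPM in HUA, the TNF receptor Tnfrsf1a was 35.1 ± 2.73 CPM in CTL and 92.96 ± 22.96 CPM in HUA and the interferon-gamma receptor chain Ifngr1 was 34.97 ± 4.52 CPM in CTL and 77.03 ± 19.99 CPM in HUA. The 4 falls, listed after their values were seen, were Ghr, Fgfr3, Lifr and Il11ra1. The calls of Lifr and Il11ra1 were lost with library totals and with HUA3 left out, and that of Lifr in most leave-one-out fits. The growth hormone receptor Ghr was 973, 1126, 929 and 900.4 CPM in the CTL libraries and 512, 529, 291 and 301 CPM in the HUA libraries (log2 change -1.27, SE 0.21, adjusted p = 0.001). In the insulin-like growth factor list, which also holds Ghr, 2 of 15 rose and 2 fell, a share near that of all genes (falls of 1 without CTL1 or CTL2 or HUA4). Socs2, a feedback inhibitor of growth hormone signalling, was 7.96 ± 4.42 CPM in CTL and 49.4 ± 21.1 CPM in HUA.

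Axon guidance molecules, which also steer epithelial and vascular cells, rose in 16 of 40 cases with 1 fall. The shares among all tested genes were 14.9% and 12.8%. After removal of GC and length trends 10 rose, and with library totals 28. Plxna1, a semaphorin co-receptor, was 20.3 ± 1.78 CPM in CTL and 52.4 ± 17.3 CPM in HUA, Efnb2, a vascular ephrin, was 7.96 ± 1.4 CPM in CTL and 17.99 ± 3.52 CPM in HUA and Efna5 was 3.17 ± 0.662 CPM in CTL and 12.5 ± 5.49 CPM in HUA. Netrin-1 (Ntn1) was the gene that fell, at 84.4, 102, 117 and 98.5 CPM in the CTL libraries and 61.5, 46.3, 50.9 and 41.1 CPM in the HUA libraries (log2 change -1.01, SE 0.16, adjusted p = 6.6e-04).

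In prostaglandin and related lipid metabolism, 9 of 26 genes rose and 3 fell, with 4 rises with the GC split. The falls were near the 12.8% of all tested genes. The prostaglandin E2 receptor EP4 (Ptger4) was 0.925, 1.15, 1.55 and 1.19 CPM in the CTL libraries and 46.2, 20.9, 7.87 and 9.05 CPM in the HUA libraries, highest in HUA1 (log2 change 4.12, SE 0.51, adjusted p = 1.5e-04). Akr1b8, an aldo-keto reductase, was 3.31 ± 0.855 CPM in CTL and 32.2 ± 14.1 CPM in HUA, and soluble epoxide hydrolase (Ephx2) was 589 ± 70.3 CPM in CTL and 229 ± 91.2 CPM in HUA. Ptgr2, which inactivates 15-keto-prostaglandins, was 169 ± 11.5 CPM in CTL and 69.7 ± 27.01 CPM in HUA.

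Fewer transcription factor genes fell than rose. Of 1231 factors in the deposited annotation, 212 rose (17.2%) and 76 fell (6.17%). Among all protein-coding genes the shares were 18.02% and 14.7%, so the share of rises was no higher among the factors. Of the 10 Rel homology factors, which include NF-kB, 7 rose, and of 23 ETS factors 10 rose. Of 48 basic leucine zipper factors 12 rose and 4 fell. Nuclear receptors of the deposited family ESR-like fell in 4 of 9 cases. These families were looked at after the values were seen.

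The factors with the largest changes at 2 FPKM or more, also taken after the values were seen, had different patterns across the HUA libraries. Foxj1, the master factor of motile cilia, was 0.222, 0.119, 0.258 and 0.268 CPM in the CTL libraries and 1.58, 7.05, 38.1 and 15.5 CPM in the HUA libraries, with a large spread and no overlap with CTL (log2 change 6.15, SE 0.84, adjusted p = 2.9e-04). Klf6, a zinc finger factor induced by injury, was 39.4, 46.9, 30.1 and 46.4 CPM in the CTL libraries and 678, 291, 334 and 209.6 CPM in the HUA libraries, highest in HUA1 (log2 change 3.22, SE 0.33, adjusted p = 5.4e-05). Atf3, a stress-induced leucine zipper factor, was 11.5, 13.8, 11.4 and 19.6 CPM in the CTL libraries and 401, 185, 20.1 and 48.8 CPM in the HUA libraries, high in HUA1 and HUA2 and close to CTL in HUA3. Arid5a, which stabilises inflammatory transcripts, was 2.65 ± 0.582 CPM in CTL and 28.1 ± 11.4 CPM in HUA. Among falls were the clock-output factors Tef and Hlf, whose D-box is shown above. Tef was 442, 385, 299.5 and 241 CPM in the CTL libraries and 121, 169, 63.4 and 113 CPM in the HUA libraries (log2 change -1.55, SE 0.26, adjusted p = 0.0011), and Hlf was 152 ± 38.7 CPM in CTL and 48.3 ± 34.5 CPM in HUA, with its call lost with the GC split (adjusted p = 0.16). Klf15, a glucocorticoid-responsive factor of amino acid metabolism, was 126 ± 6.72 CPM in CTL and 40.6 ± 16.2 CPM in HUA.

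**Figure D4:**
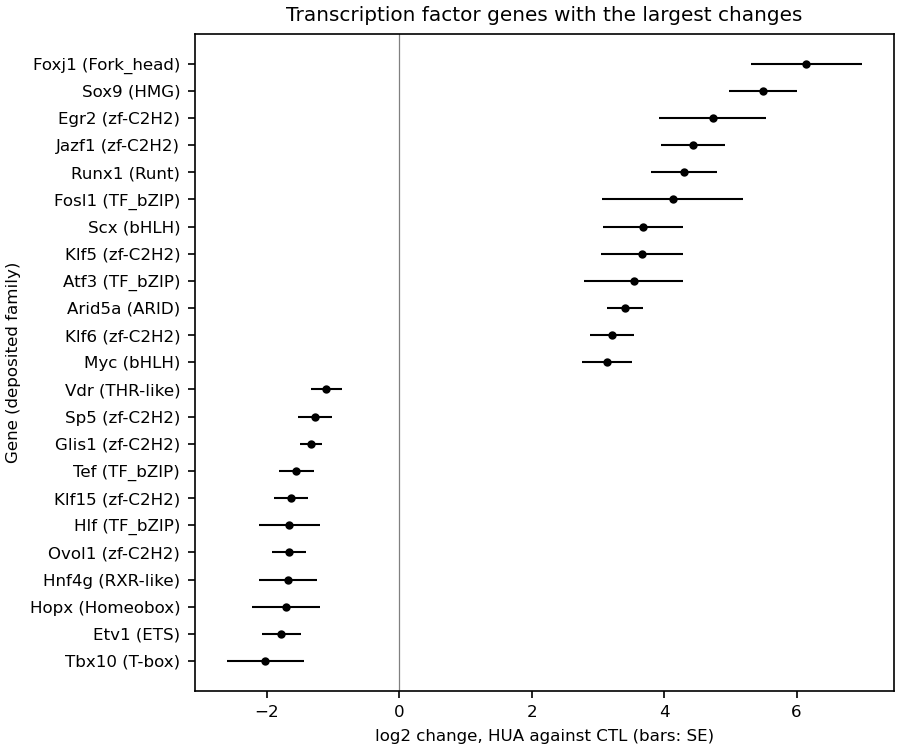
Log2 change in HUA against CTL (x, bars are the SE) of the 12 transcription factor genes with the largest rises and 11 of the 12 with the largest falls at a mean of 2 FPKM or more, with the deposited family in brackets. The rises span 3.14 (Myc) to 6.15 (Foxj1), and the falls reach -2.02 (Tbx10).

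Of 35 genes that build the nephron in the embryo 12 rose, against 14.9% of all tested genes. Another 5 fell (3 without CTL1 or HUA4), a share near the 12.8% of all genes. Sox4 was 9.95, 8.33, 9.82 and 9.72 CPM in the CTL libraries and 78.5, 61.4, 122 and 50.8 CPM in the HUA libraries (log2 change 3.05, SE 0.24, adjusted p = 7.0e-06) and its relative Sox11 0.148, 0.536, 0.129 and 0.587 CPM in the CTL libraries and 8.45, 3.98, 42.8 and 9.32 CPM in the HUA libraries, highest in HUA3. Cd24a, a surface glycoprotein of progenitor and injured tubule cells, was 118 ± 13.5 CPM in CTL and 658 ± 212 CPM in HUA, and the adhesion molecule Ncam1 was 1.7 ± 0.532 CPM in CTL and 11.5 ± 5.14 CPM in HUA. Falls, listed after their values were seen, included Lhx1, Hnf4a, Gfra1 and Wnt11. Lhx1 and Wnt11 lost their calls with the GC split, and Wnt11 also with CTL1, CTL3 or HUA4 left out. Hnf4a, the nuclear receptor that maintains the mature proximal tubule, was 744, 693, 788 and 796 CPM in the CTL libraries and 511, 385, 266 and 351 CPM in the HUA libraries (log2 change -0.997, SE 0.19, adjusted p = 0.0024).

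Protein and RNA turnover lists depended more on scaling. Of 37 lysosome and autophagy genes 7 rose and 15 fell, against 14 and 6 with library totals. The falls were 8 without CTL2 or HUA3 and 9 without CTL4. Among all tested genes 14.9% rose and 12.8% fell, so the share of rises was near that of all genes. The rises, listed after their values were seen, included the cathepsins Ctsb, Ctsc, Ctsd, Ctsl and Ctss, of which Ctsb lost its call with the GC split (adjusted p = 0.16). Ctsd was 647 ± 28.1 CPM in CTL and 1812 ± 565 CPM in HUA and Ctsl 359, 369, 332 and 343 CPM in the CTL libraries and 976, 609.7, 1078 and 1514 CPM in the HUA libraries, while beta-galactosidase (Glb1) was 247, 250.3, 251 and 227 CPM in the CTL libraries and 127, 145, 103 and 94.2 CPM in the HUA libraries and beta-glucuronidase (Gusb) 123 ± 53.05 CPM in CTL and 37.6 ± 8.06 CPM in HUA. Of 38 proteasome genes 5 rose, near the 14.9% of all tested genes, and 9 fell, the latter 1 with library totals. The rises were 3 without CTL3. The immunoproteasome subunits Psmb8 (3.96, 4.46, 3.49 and 7.62 CPM in the CTL libraries and 8.74, 23.1, 14.3 and 21.8 CPM in the HUA libraries) and Psmb10 (5.98 ± 1.29 CPM in CTL and 19.3 ± 9.14 CPM in HUA) rose, and the constitutive Psma4 (269 ± 13.8 CPM in CTL and 154 ± 18.2 CPM in HUA) and Psmc6 (142 ± 5.83 CPM in CTL and 96.8 ± 9.01 CPM in HUA) fell, Psmc6 not with library totals (adjusted p = 0.11).

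Ribosome biogenesis genes rose in 7 of 38 cases and fell in 1, a share of rises near the 14.9% of all genes, and 25 rose with library totals. The rises were 12 without HUA2 and 13 without HUA1. Myc, the factor that drives this programme, was 6.47, 9.82, 6.07 and 18.9 CPM in the CTL libraries and 95.2, 99.6, 106 and 63.7 CPM in the HUA libraries (log2 change 3.14, SE 0.38, adjusted p = 1.3e-04). The nucleolar genes Nop56 (29.7 ± 4.996 CPM in CTL and 57.4 ± 21.8 CPM in HUA), Rrp1b (9.53 ± 0.733 CPM in CTL and 17.4 ± 5.06 CPM in HUA) and Noc4l (11.3 ± 1.38 CPM in CTL and 22.5 ± 7.88 CPM in HUA) rose by much less, and Nop56 and Noc4l lost their calls with the GC split (adjusted p = 0.058 and 0.066). Utp20 fell (85.7 ± 3.33 CPM in CTL and 46.7 ± 17.2 CPM in HUA; named after its values were seen), but not with library totals (adjusted p = 0.055). Of 20 tRNA synthetase genes, Lars and Vars rose and Dars fell, by log2 0.41, 0.63 and -0.35, and with library totals 11 rose. Neither share in the main fit was larger than that of all genes. None of these synthetase calls held in every leave-one-out fit, with rises of 0 without CTL2 or CTL3 or HUA3 and 1 without CTL1 or HUA4 and 4 without HUA2 and 5 without HUA1.

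Of 25 hypoxia-response genes 3 rose, no larger a share than the 14.9% of all genes, and 8 fell against 12.8% of all genes, the latter 3 with library totals and 4 without HUA4 and 5 without CTL4 or HUA3. The glucose transporter Slc2a1 was 46.1, 41.5, 46.4 and 48.03 CPM in the CTL libraries and 145, 76.2, 214 and 86.5 CPM in the HUA libraries and the collagen crosslinker Lox 1.06 ± 0.478 CPM in CTL and 9.08 ± 6.19 CPM in HUA, while the mitophagy receptor Bnip3 was 209.7, 245, 186 and 196 CPM in the CTL libraries and 95.9, 117, 57.9 and 82.5 CPM in the HUA libraries (log2 change -1.24, SE 0.21, adjusted p = 0.001) and Ddit4, an mTORC1 inhibitor, was 64.7 ± 18.1 CPM in CTL and 19.2 ± 5.81 CPM in HUA. Of 26 long noncoding RNA genes 5 rose (2 without CTL3 and 3 without CTL1 or HUA3) and 0 fell. This share of rises was near the 14.9% of all genes. Neat1, the scaffold of paraspeckles, was 1114, 918, 1111 and 1273 CPM in the CTL libraries and 2213, 1624, 1755 and 1717 CPM in the HUA libraries (log2 change 0.73, SE 0.15, adjusted p = 0.003), and the miR-17 host gene Mir17hg was 2.78 ± 0.922 CPM in CTL and 9.9 ± 5.05 CPM in HUA. Gas5 and Snhg15 rose by log2 0.84 and 0.92 and lost their calls with the GC split (adjusted p = 0.1 and 0.11), Gas5 also with CTL3 or HUA3 left out and Snhg15 with CTL1, CTL3 or HUA3 left out.

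Genes commonly used as references were called about as often as other genes (24.1% against 27.8%). Of 29, 2 rose (Actb and Rplp0) and 5 fell (Gusb, Sdha, Emc7, Pgk1 and Reep5). The call of Rplp0 was lost with CTL1, CTL2, CTL3, CTL4, HUA3 or HUA4 left out, and that of Reep5 with CTL3, HUA1 or HUA3 left out. The calls of Emc7, Pgk1 and Reep5 were lost with library totals, and those of Pgk1 and Rplp0 with the GC split. Without 1 library, the rises were 1 without CTL1 or CTL2 or CTL3 or HUA3 and 5 without HUA1. Hprt was 74.5, 87.9, 86.1 and 88.5 CPM in the CTL libraries and 73.3, 69.9, 92.8 and 97.9 CPM in the HUA libraries (log2 -0.01, adjusted p = 0.96) and Tbp 29.96 ± 3.12 CPM in CTL and 30.6 ± 2.26 CPM in HUA (log2 0.03, adjusted p = 0.9). Their position depends on the scaling, and with library totals 9 of the list were higher and 2 lower in HUA.

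The HUA libraries differed among themselves more than the CTL libraries did. For 354 genes with an assigned symbol (no predicted models, pseudogenes or clone names) that rose over 4-fold to a HUA mean of 2 FPKM or more, the median coefficient of variation was 48.98% across HUA and 23.8% across CTL. For 740 such genes that fell over 2-fold from a CTL mean of 2 FPKM or more it was 39.7% and 12.7%. HUA3 was the highest HUA library for 221 of these rises and the lowest for 427 of these falls. HUA2 was the lowest for 149 rises and the highest for 469 falls, so it lay nearest to CTL. The median log2 distance of the falls from the CTL mean was -1.17 in HUA1, -0.94 in HUA2, -1.93 in HUA3 and -1.77 in HUA4.

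**Figure D5:**
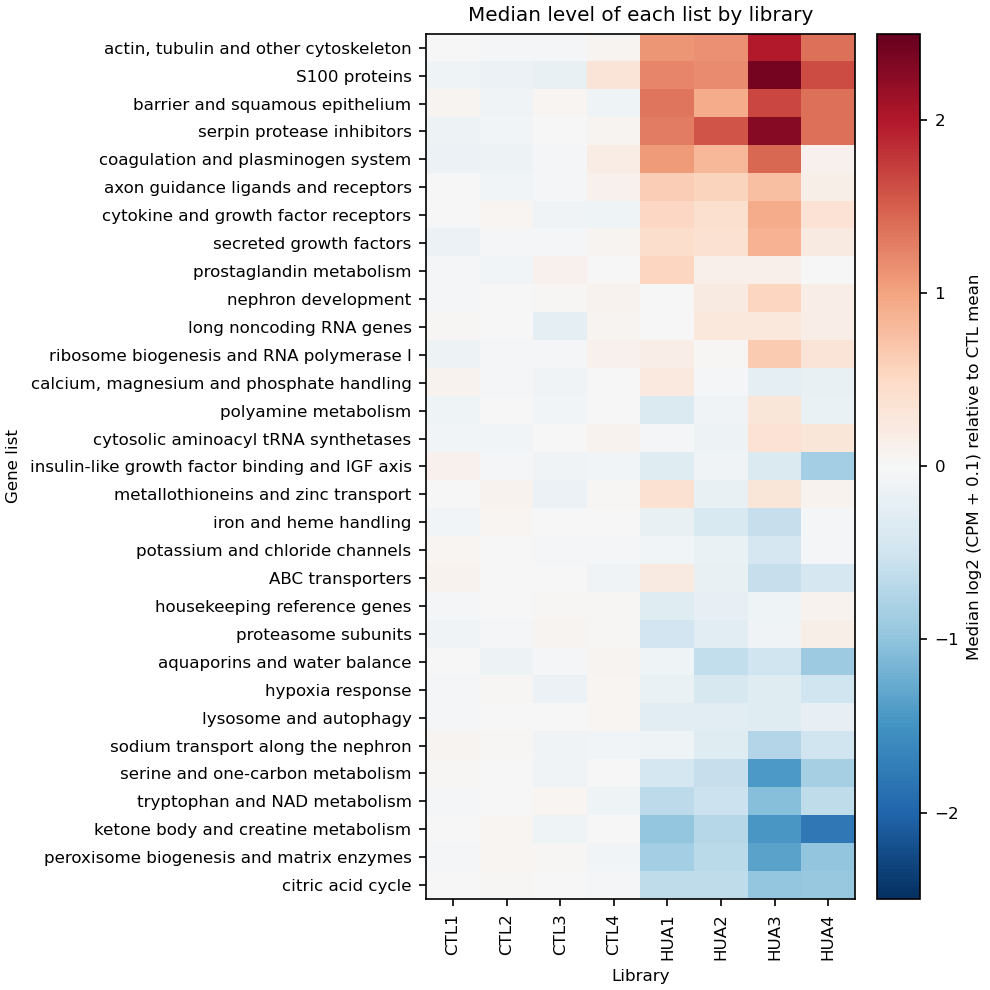
Median level of the tested members of each gene list (rows) in each library (columns), as log2 (CPM + 0.1) relative to the CTL mean, red above and blue below. HUA3 has the strongest colour in most rows, and the coagulation and axon guidance lists are pale in HUA4.

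Some genes rose evenly in spite of this. Besides Serpina3g, these were Sertad1, Nuak2, Hspb8, Cd68 and Muc1. They were picked among called genes for a small spread across HUA. That choice favours a small SE and adjusted p, which are given here as a description. Hspb8, a small heat shock protein of chaperone-assisted autophagy, was 7.49, 6.96, 6.95 and 9.7 CPM in the CTL libraries and 71.1, 61.6, 57.8 and 53.9 CPM in the HUA libraries (log2 change 2.97, SE 0.20, adjusted p = 3.0e-06). Nuak2, a kinase and YAP target, was 57.5, 79.1, 64.8 and 67.6 CPM in the CTL libraries and 279, 263, 307 and 344 CPM in the HUA libraries. Cd68, a lysosomal protein of phagocytes, was 1.69 ± 0.501 CPM in CTL and 10.8 ± 1.35 CPM in HUA, at the same level in HUA4 as in the other HUA libraries although the macrophage gene Lyz2 was 106, 99.04, 81.6 and 12.8 CPM in HUA1 to HUA4. Among the falls Armc1, Acaa2, Tspan3, Kcnk5, Slc9a8 and Arhgap10 were the most even, picked for a small spread in the same way. Acaa2, the last enzyme of mitochondrial beta-oxidation, was 167, 169, 185 and 222 CPM in the CTL libraries and 73.6, 87.1, 73.2 and 85.6 CPM in the HUA libraries (log2 change -1.22, SE 0.14, adjusted p = 8.1e-05).

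Others were uneven across the HUA libraries. Nppb, the natriuretic peptide BNP, was 0.166, 0.0793, 0 and 0 CPM in the CTL libraries and 13.3, 4.91, 0.563 and 0.177 CPM in the HUA libraries, so most of the rise lay in HUA1 and HUA2 (log2 change 6.22, SE 1.49, adjusted p = 0.0076). Arc, an immediate early gene, was 1.94, 4.18, 3.72 and 3.2 CPM in the CTL libraries and 107, 36.8, 5.47 and 1.23 CPM in the HUA libraries, with HUA4 below the CTL libraries, and its call was lost with CTL1 or HUA1 left out and with a replicate block (adjusted p = 0.098). Krt20, a keratin of urothelium and injured tubule, was highest in HUA3, at 0.37, 1.57, 1.16 and 2.6 CPM in the CTL libraries and 13.5, 15.9, 185 and 43.7 CPM in the HUA libraries. Saa1, an acute phase protein, was 0, 0.952, 0.237 and 0.804 CPM in the CTL libraries and 7.5, 0.785, 3.27 and 27.8 CPM in the HUA libraries, and its call was lost with CTL3 or HUA4 left out and with the GC split. Vgf, a secreted neuropeptide precursor, was 0 in all CTL libraries and 22.7, 29.5, 238 and 22.6 CPM in HUA. Apoc2 was 0 in CTL and HUA2. Among falls the most uneven were Slc22a7, the globins Hba-a1, Hba-a2 and Hbb-bs, Lypd8 and Commd1b. Slc22a7, an organic anion carrier of the proximal tubule, was 69.1, 99.8, 94.6 and 129.6 CPM in the CTL libraries and 5.26, 23.7, 1.45 and 2.23 CPM in the HUA libraries. Hba-a1 was 118, 169.7, 102 and 107 CPM in the CTL libraries and 62.8, 7.81, 6.02 and 8.16 CPM in the HUA libraries, with HUA1 apart from the other HUA libraries, and its call was lost with CTL1, CTL2, HUA2, HUA3 or HUA4 left out and with the GC split. Commd1b was 11.1, 15.6, 63.6 and 0 CPM in the CTL libraries and 0, 0, 0 and 0 CPM in the HUA libraries, varying within CTL from 0 upward, and its counts may be shared with its parent gene Commd1.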

How the data were processed

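Kidney RNA libraries, 4 CTL and 4 HUA, were compared. The filter, scaling and spread also used 4 further libraries. Per the labels' protocols, TRIzol was used for RNA and the library type keeps strand. The submitters' processing notes name cutadapt 1.9, HISAT2 2.2.1 and the GRCm38 build. How reads were counted, and on which annotation, is not given in the sources used here. What the authors deposited was a table of raw counts and FPKM values per gene, per the file headers. Counts were filtered with filterByExpr, scaled by TMM and tested in edgeR 4.0.16 (quasi-likelihood) over all libraries, with R 4.3.3, a prior of 4.23 degrees of freedom and Benjamini-Hochberg adjustment over all tested genes. SEs come from the F statistic. Deposited FPKM values served for levels across genes and for limma 3.58.1 alternatives. DESeq2 1.42.0, other scalings and filters, a replicate block and leave-one-out fits were also run. The fits were tested on simulated data. GC content and length came from GENCODE M21. The GC split sets the libraries with a GC slope over 0.15 apart in the model. These were HUA2, HUA3, HUA4 and some of the further libraries, and no CTL library. The term thus overlaps with the HUA group. For a call lost with it, that overlap and the composition cannot be told apart.

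Members and gene lists were chosen with earlier results of these data known. Named genes (predicted models and pseudogenes left out) are the 12 largest FPKM gains and losses, the 6 most and 6 least even rises (over 4-fold, HUA mean of 2 FPKM or more) and falls (over 2-fold, CTL mean of 2 FPKM or more), the 4 smallest p-values of each list and the reference genes. Some of these are not reported here. The text marks any other gene as named after the fact. Motifs were searched in RefSeq promoter windows, matched by gene ID or symbol. The adrenal cortex, adipocyte and skeletal muscle marker lists had no member past the threshold. Of neutrophil markers 2 rose, and of T cell, B and plasma cell and endothelial markers 1 each fell, while 1 B and plasma cell marker rose.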

Additional observations from a re-analysis of the deposited data

Results flagged for a closer look

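Among 428 sets of 4 libraries (the named genes in CTL and in HUA), 31 had 1 library far from the other 3 by Dixon's ratio, 15 in CTL and 16 in HUA. Chance would give about 1 in 20 in sets not chosen by their values, but many of these genes were named for an even or uneven spread or after their values were seen, so that rate is no yardstick here. Values are CPM, with the range of the other 3 libraries in brackets. Apart in HUA1 were Hba-a1 at 62.8 (6.02 to 8.16), Hbb-bs at 75.2 (6.95 to 10.05) and Hba-a2 at 47.97 (4.11 to 6.997). Standing apart in HUA2 were Kap at 12569 (5168 to 5760.4), Slc22a7 at 23.7 (1.45 to 5.26) and Cyp27b1 at 27.5 (2.92 to 5.88). Apart in HUA3 were Vgf at 238 (22.6 to 29.5), Trpm6 at 41.5 (17.4 to 21.1), Mt1 at 354 (209.7 to 232), Sox11 at 42.8 (3.98 to 9.32), Plxna1 at 78.2 (40.8 to 46.2), Snhg15 at 12.1 (5.88 to 6.61) and Emc7 at 78.1 (69.3 to 70.6). Standing apart in HUA4 were Lypd8 at 0.0443 (0 to 0), Upk3a at 5.57 (0 to 0.469) and Krt5 at 19.1 (0.137 to 1.44). Apart in CTL1 were Gnmt at 29.3 (34.5 to 34.7) and Ephx2 at 485 (608 to 633). Standing apart in CTL2 were Sox4 at 8.33 (9.72 to 9.95), Efna5 at 2.18 (3.38 to 3.55) and Osmr at 8.23 (3.69 to 3.88). Apart in CTL3 were Cd68 at 0.947 (1.84 to 1.99), Umod at 2449 (2881 to 2956) and Odc1 at 847 (289 to 370.1). Standing apart in CTL4 were Plau at 276 (199.8 to 206), Pex14 at 86.5 (68.8 to 70.4), Mthfd2 at 6.8 (2.76 to 3.19), Psat1 at 42.9 (21.5 to 24.95), Glb1 at 227 (247 to 251), S100a10 at 126 (74.4 to 75.4) and Serpina10 at 3.42 (0.417 to 0.666). The Lypd8 value in HUA4 is 3 counts, against 0 in the other HUA libraries.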

How the results depend on the processing

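The count of 5488 genes called in HUA against CTL was 6599 with DESeq2, 4771 with no filter on low counts and 4931 when only these 8 libraries were fitted, and stayed within 1.5 times under each alternative. Leaving out 1 library gave 4208 to 6347 calls, 2275 to 3562 of them higher and 1807 to 2785 lower. The split into directions depended on scaling. Library totals gave 5779 higher and 1320 lower, limma on log2(FPKM + 1) gave 5514 and 1381 and limma on log2(FPKM + 0.1) gave 5680 and 1432, while removal of GC and length trends gave 2427 and 3609. When libraries were split by GC slope in the model, 3394 of the 5488 genes were shared. The GC alternatives were chosen after seeing the data. Replicate numbers did not pair the libraries: deviations from the group mean correlated at 0.025, 0.0424, 0.0111 and -0.0289, and 1 of the 4 CTL libraries correlated best with its own number. A replicate block gave 5466 calls, 2787 higher and 2679 lower. Of 205 named genes called, 154 were called under each alternative that gave a value, and 0 reversed. The GC split ended 37 of these calls. The causes were not tested. Depth limited low genes: 3 counts correspond to 0.0352 to 0.0646 CPM.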
